A study of Bos taurus with 6 samples.

Results

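The genes described here encode the main coat proteins of the lipid droplet and their partners in the endoplasmic reticulum: the perilipins PLIN1, PLIN2, PLIN3, PLIN4 and PLIN5, the CIDE proteins CIDEA and CIDEC, and the FITM proteins FITM1 and FITM2. They were chosen by name for their function, with earlier results of these data known, and all 9 were found among the 18010 genes of the deposited files. RNA-Seq had been performed on the longissimus dorsi, the long muscle of the back, of 3 Shandong black cattle and 3 Luxi cattle, with 1 library per animal, and every animal was 18 months old. Shandong black cattle descend from 3 breeds, the Japanese black, the Bohai black and the Luxi, a yellow breed of the region, so the 2 groups share ancestry. The labels name no treatment. Each breed came from its own supplier, so breed and origin cannot be told apart. The labels give no sex, but XIST, the RNA of the silenced X chromosome of females, was at 4.83 to 14.0 FPKM in Shandong black cattle and at 0 to 0.207 in Luxi cattle, so breed and whatever sets the XIST level cannot be told apart either. XIST was matched by name from a list of 6 sex markers, of which no other was matched. Whether the others lacked a gene model or lacked reads was not checked, so nothing about sex can be drawn from their absence. XIST was called lower in Luxi cattle (limma adjusted p = 0.0105). However, it passed the limit of a mean of 1 FPKM for testing only through Shandong black cattle. It was not called with voom or without Shandong black 1 or 3.

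A lipid droplet is a core of triglyceride and sterol ester under a single layer of phospholipid, and the proteins on its surface decide how readily lipases reach the core. Fat cells hold 1 large droplet that is coated by PLIN1 and PLIN4 and enlarged by CIDEC and CIDEA, which move lipid from smaller into larger droplets. Muscle fibres hold small droplets beside their mitochondria, and PLIN5 is the coat known for fibres that burn fat. PLIN2 and PLIN3 coat droplets in most cells, and the FITM proteins help triglyceride to leave the endoplasmic reticulum into a new droplet, FITM1 mainly in muscle and FITM2 more widely.

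Levels are gene FPKM, a read density for each kilobase of transcript that is scaled by the size of the library, summed over the transcripts of a gene, and are therefore per length and can be compared between genes. The 6 libraries rest on 14.1 to 17.99 gigabases of aligned sequence, the Luxi libraries being the deeper ones. Differences between the breeds are on the log2(FPKM + 1) scale, Luxi minus Shandong black, which understates the change of genes with low FPKM. They were tested with limma over 9781 genes with a mean of at least 1 FPKM in at least 1 breed, and called here means an adjusted p under 0.05 together with a log2 difference of 1 or more in size. Of the 9 members, 8 were tested, CIDEA being too low. PLIN1 entered the test only through its level in Shandong black cattle, since its Luxi mean lay under the limit.

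PLIN1, CIDEC and PLIN2 were lower in Luxi cattle and were called. The other 5 members tested were not called, and no member was called higher. These 3 of 8 stand beside 2.57% of all genes tested that were called in either direction and 1.02% that were called lower in Luxi cattle. The paper on the same animals had already reported PLIN1, PLIN2 and PLIN3 as downregulated, so this count does not come from an independent list. In 4 of the 8 tested members, and in CIDEA, each Luxi animal lay below each Shandong black animal, where 9.13% of all genes tested did so. The median log2 difference was -0.62 over the 8 members and 0.13 over all genes tested. The latter moved to 0.02 when libraries were scaled by median-of-ratios size factors, so a difference near 0 depends on the scaling of the libraries.

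**Figure D1:**
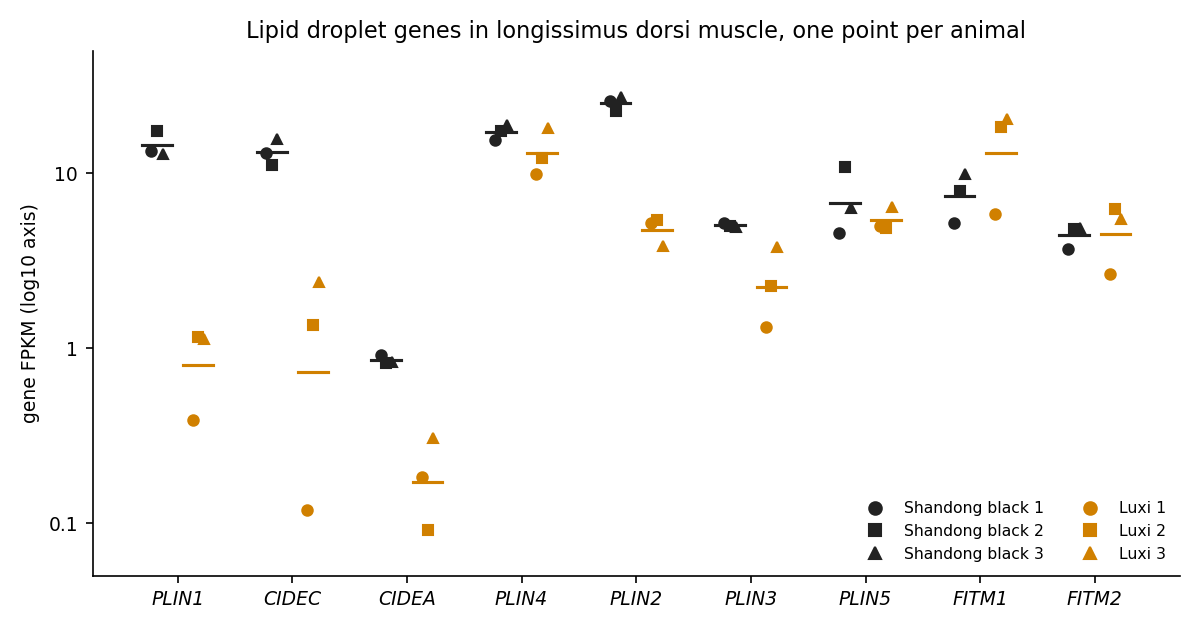
FPKM of the 9 genes in each of the 6 animals on a log10 axis, with Shandong black cattle in black and Luxi cattle in orange, a marker shape per animal and a short line at the mean of the log values of each breed. PLIN1, CIDEC, CIDEA, PLIN2 and PLIN3 have no Luxi animal as high as the lowest Shandong black animal, whereas PLIN4, PLIN5, FITM1 and FITM2 overlap.

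PLIN1, the coat of the large fat-cell droplet that holds lipases back until the cell is stimulated, lies on the minus strand of chromosome 21 (21078033 to 21091966; all positions here are on ARS-UCD1.2). The FPKM was 13.4, 17.5 and 12.9 in Shandong black cattle and 0.390, 1.15 and 1.12 in Luxi cattle. The lowest Shandong black value was far above every Luxi value, and Luxi 1 was the lowest of all. The mean fell from 14.6 ± 2.51 (SD, n = 3) to 0.889 ± 0.433 (SD, n = 3), which is 16.4-fold lower in Luxi cattle. The log2 difference was -3.06 with a standard error of 0.23 and a 95% interval of -3.60 to -2.52 (limma adjusted p = 0.00701), and by its p-value PLIN1 was number 3 of the genes tested. In bulk muscle, fewer fat cells and less RNA per fat cell cannot be told apart. Behind these values stood the equivalent of 4015 to 5495 reads per Shandong black library and of 66 to 423 reads per Luxi library, estimated from coverage, transcript length and a read length of 150 bases.

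The low PLIN1 value of Luxi 1 was of another make than the rest. In the Shandong black animals and in Luxi 3 all PLIN1 FPKM lay on the 3 reference transcripts, each with 9 exons. In Luxi 1 no reference transcript was listed, and the whole value came from 2 assembled transcripts of 5 and 6 exons that had 77.7% and 69.6% of their bases on PLIN1 exons. No transcript listed for that animal covered the last and longest PLIN1 exon, of 1903 bases, which does not show that no reads lay there. In Shandong black cattle that exon was 15.2 to 16.6 reads deep per gigabase. In Luxi 1, 129 read equivalents lay in PLIN1 introns on the same strand, and these include the parts of the 2 assembled transcripts that lie off the exons. They were 68.9% of the signal across the gene, while no other animal had any. In Luxi 2, 34.2% of the value came from an assembled transcript of 11 exons that has 64.9% of its bases on exons of PLIN1 and 39.2% on exons of the neighbouring gene PEX11A on the same strand, some bases lying on both. On reference transcripts alone the FPKM of the Luxi animals was 0, 0.760 and 1.12, and PLIN1 was called in that setting too (log2 difference -3.32, limma adjusted p = 0.00970).

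CIDEC, which sits where droplets touch and passes lipid to the larger of them, lies on the plus strand of chromosome 22 from 16864388 to 16873816. Its FPKM was 13.1, 11.1 and 15.8 in Shandong black cattle and 0.119, 1.35 and 2.38 in Luxi cattle. The breeds did not overlap, and Luxi 1 was again the lowest, with the equivalent of 18 reads. The mean was 13.3 ± 2.31 (SD, n = 3) against 1.29 ± 1.13 (SD, n = 3), 10.4-fold lower in Luxi cattle. The log2 difference was -2.78 with a standard error of 0.39 (limma adjusted p = 0.0216). This call was the least firm of the 3: it was lost without Shandong black 1 (limma adjusted p = 0.102), without Shandong black 3 (0.119) and without Luxi 2 (0.0675), and without Luxi 1 the difference was -2.33 and still called (0.0118). All CIDEC signal lay on reference transcripts, and the same 6-exon transcript of 1301 bases carried the largest share in every animal. On the log2(FPKM + 1) scale CIDEC minus PLIN1 was -0.03, -0.61 and 0.27 in Shandong black cattle. It was -0.31, 0.13 and 0.67 in Luxi cattle, and these ranges overlap. Within Shandong black cattle CIDEC did not follow PLIN1, being lowest in Shandong black 2, where PLIN1 was highest. CIDEC was at 0.119 FPKM against 0.390 for PLIN1 in Luxi 1 and at 2.38 against 1.12 in Luxi 3.

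CIDEA, the other fusion protein, is best known from brown fat and, in large mammals, from white fat as well. It lies on the plus strand of chromosome 24 from 42778433 to 42792110 and was the lowest member in both breeds. Its FPKM was 0.915, 0.822 and 0.836 in Shandong black cattle and 0.184, 0.0916 and 0.308 in Luxi cattle. The Shandong black animals were close to each other and all lay above the Luxi animals, a 4.41-fold difference of the means. FPKM is per length, and the last exon, of 2240 bases, was thinly covered. It had 0.345 to 0.404 per gigabase in Shandong black cattle, against 2.18 to 3.68 on exon 2. Luxi 3 came nearer on the inner exons, with 1.90 on exon 2 and 2.12 on exon 3. The lowest Shandong black values there were 2.18 and 2.94. The gene was below the limit of 1 FPKM and was not tested. When no limit was set, its log2 difference was -0.64 (limma adjusted p = 0.0693), and it was not called. The Luxi values rest on the equivalent of 31 to 104 reads and those of Shandong black cattle on 205 to 229. Intronic signal made up 13.9 to 32.6% of the CIDEA signal in Luxi cattle and 0 to 1.505% in Shandong black cattle.

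PLIN4, a coat of fat-cell droplets that is also found in striated muscle, was not called. It lies on the plus strand of chromosome 7 from 19614567 to 19628222, and its start is 2793 bases after the end of PLIN5. Its FPKM was 15.6, 17.5 and 18.9 in Shandong black cattle and 9.93, 12.2 and 18.2 in Luxi cattle. Luxi 3 lay between the second and the highest Shandong black animal, and so the breeds overlapped. Of the Luxi 3 value, 1.73 and 0.760 FPKM came from assembled transcripts of 3 exons that end at 19616692. These had only 50.5% and 56.0% of their bases on PLIN4 exons, and no other animal had such transcripts. The mean was 17.3 ± 1.69 (SD, n = 3) against 13.4 ± 4.28 (SD, n = 3). The log2 difference of -0.38 was not called (limma adjusted p = 0.411), and its 95% interval ran from -0.97 to 0.21, wholly above the intervals of PLIN1 and CIDEC. The sum over reference transcripts alone was 8.03, 15.2 and 14.1 in Shandong black cattle and 2.57, 5.61 and 8.20 in Luxi cattle, a log2 difference of -1.12 that was not called either (limma adjusted p = 0.197).

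**Figure D2:**
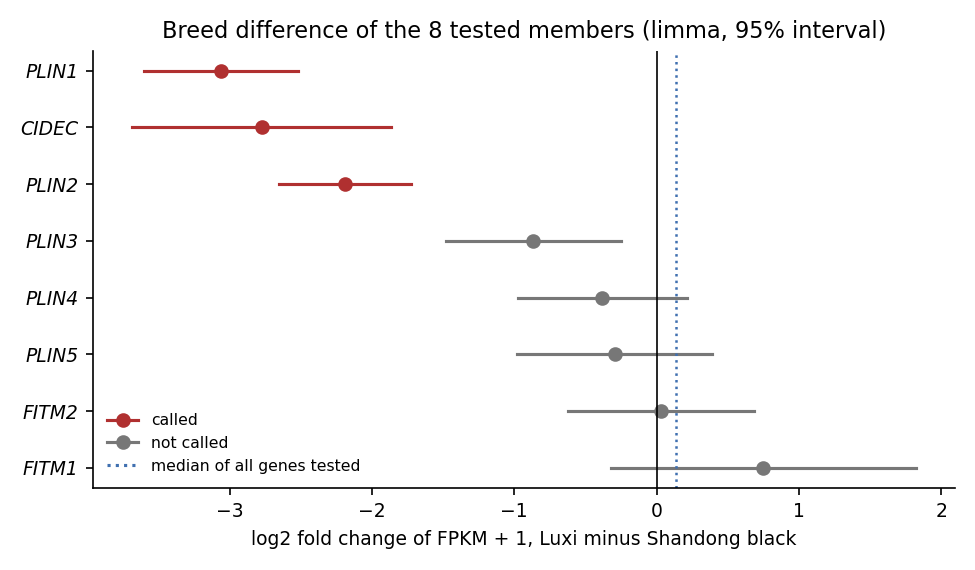
Log2 difference of FPKM + 1 between the breeds for the 8 members tested, with the 95% interval of the limma fit, called members in red, the others in grey, and the median of all genes tested as a dotted line. PLIN1 at -3.06, CIDEC at -2.78 and PLIN2 at -2.19 stand apart to the left, and the intervals of PLIN4, PLIN5, FITM1 and FITM2 include 0.

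The breed difference of PLIN4 was uneven along the gene. Exon 5, from 19618810 to 19623085 and 4276 bases long, is the long exon of the repeats for which perilipin 4 is known, units of 33 amino acids or 99 bases. Its coverage per gigabase was 17.5, 24.8 and 23.3 in Shandong black cattle and 10.5, 14.2 and 15.3 in Luxi cattle. On exon 5 the breeds did not overlap. The last exon, of 2418 bases, had 8.14, 5.76 and 10.5 in Shandong black cattle and 6.31, 6.65 and 10.9 in Luxi cattle, and there the breeds overlapped. Coverage of exon 5 relative to the last exon was 2.15, 4.31 and 2.21 in Shandong black cattle and 1.67, 2.13 and 1.41 in Luxi cattle. The 2 nearest animals, Shandong black 1 and Luxi 2, were almost alike in this ratio, and the difference was not tested.

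Transcripts of PLIN4 differ, among other features, by the gaps they have inside the repeat exon. The files list 43 different gaps inside exon 5, of which 12 occur in reference transcripts and 37 in assembled ones, and the length of all 43 is a multiple of 99 bases, from 99 to 2079. Each gap therefore has the length of whole repeat units, though the repeat boundaries were not located. The reference transcript with the uncut exon, of 7337 bases, had an FPKM of 2.74, 9.19 and 7.55 in Shandong black cattle and 0.122, 0.781 and 2.63 in Luxi cattle. No Luxi animal reached the lowest Shandong black animal, although Luxi 3 came close to it. The transcript with the uncut exon also ends latest, at 19628222, and all others listed end at 19627745 or before. The uncut exon and the later end therefore cannot be told apart in these values. All other PLIN4 transcripts together had 12.8, 8.36 and 11.4 in Shandong black cattle and 9.81, 11.4 and 15.6 in Luxi cattle, and these overlapped. The Luxi 3 sum includes its assembled transcripts of 3 exons, which end before exon 5. Whether the gaps are spliced introns, unequal repeat numbers in these animals or reads placed on the wrong repeat was not tested.

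PLIN2, the coat of droplets in most cells and a protein that is stable only when bound to one, lies on the plus strand of chromosome 8 from 25117110 to 25131174. Its FPKM was 25.9, 22.7 and 27.2 in Shandong black cattle and 5.17, 5.39 and 3.82 in Luxi cattle. It was the highest member in each Shandong black animal, and the breeds were far apart. The mean of 25.3 ± 2.33 (SD, n = 3) was 5.27-fold that of Luxi cattle, 4.79 ± 0.852 (SD, n = 3). The log2 difference was -2.19 with a standard error of 0.20 (limma adjusted p = 0.00812). Without Shandong black 1 or Shandong black 3 PLIN2 was just above the threshold (limma adjusted p = 0.0505 and 0.0596). PLIN1 relative to PLIN2 was at -0.90, -0.36 and -1.02 on the log2 scale in Shandong black cattle and at -2.15, -1.57 and -1.18 in Luxi cattle, with no overlap between the breeds, a difference that was not tested.

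PLIN2 coverage differed along the whole gene. In each of its 9 exons every Luxi animal lay below every Shandong black animal. The ratio was wider at the 5′ end: coverage of exon 2 relative to the last exon was 0.934, 1.22 and 0.872 in Shandong black cattle and 0.460, 0.656 and 0.718 in Luxi cattle, with no overlap. PLIN5 shared this order, at 0.993, 0.966 and 1.41 against 0.456, 0.935 and 0.671. PLIN4 had the opposite order, at 0.428, 0.448 and 0.462 against 0.639, 0.790 and 0.656. In PLIN1, PLIN3, CIDEA and CIDEC this ratio overlapped between the breeds or could not be formed in Luxi 1. Its part in the breed differences was not tested.

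**Figure D3:**
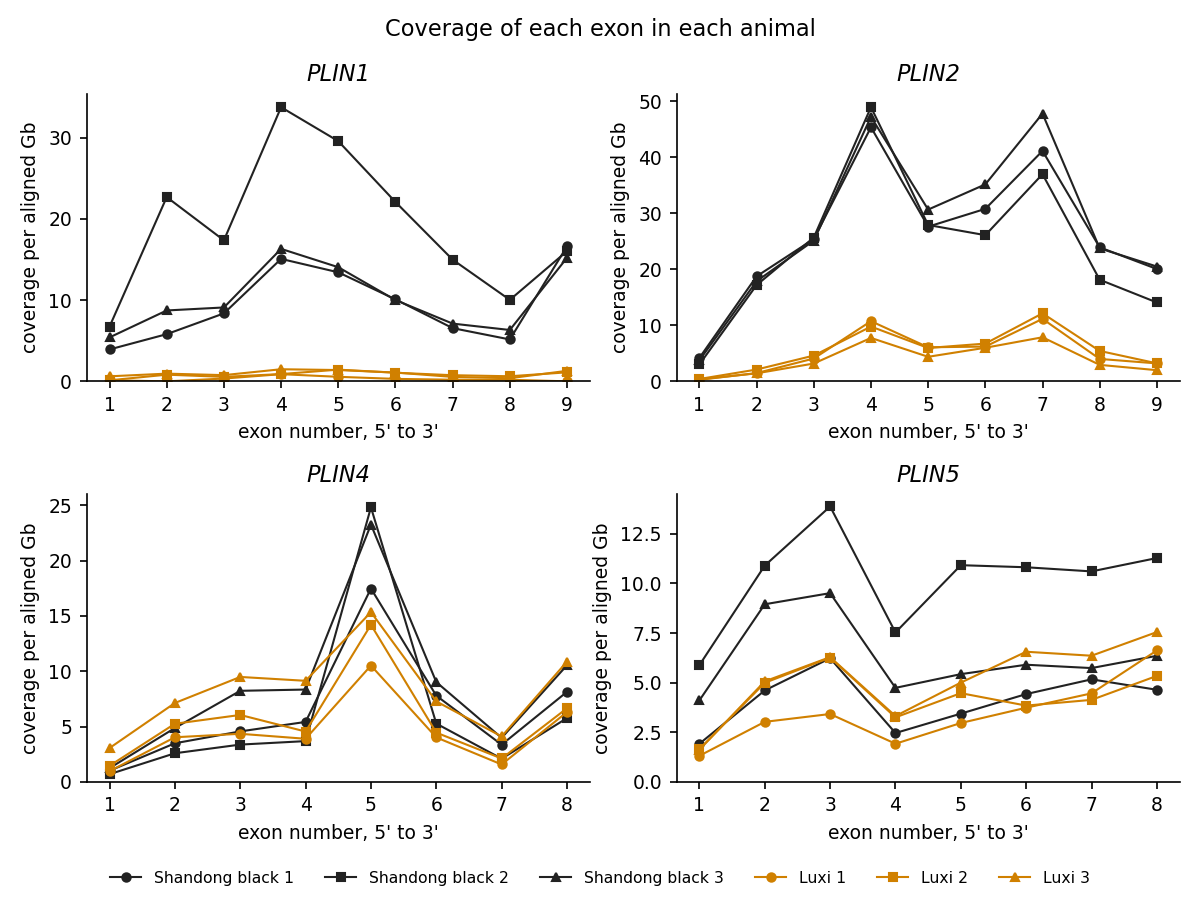
Coverage per gigabase of aligned sequence for each exon, from 5′ to 3′, of the leading reference transcript of PLIN1, PLIN2, PLIN4 and PLIN5, with 1 line per animal, black for Shandong black cattle and orange for Luxi cattle. All Luxi lines lie below all Shandong black lines in PLIN1 and PLIN2, whereas they part only at exon 5 in PLIN4 and only at exon 1 in PLIN5.

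PLIN3, which waits in the cytosol and moves to newly forming droplets, lies on the plus strand of chromosome 7 from 19291317 to 19311906, 288588 bases before PLIN5. Its FPKM was 5.17, 4.99 and 4.95 in Shandong black cattle and 1.33, 2.27 and 3.78 in Luxi cattle. The Shandong black animals were nearly equal, with a spread of 0.112 (SD, n = 3), and the Luxi animals were all lower and spread over 1.24 (SD, n = 3). The log2 difference was -0.87, with a 95% interval of -1.48 to -0.25, and did not pass after adjustment (limma adjusted p = 0.122, unadjusted p = 0.0123). PLIN3 was not called in any of the 16 alternative settings in which it could be fitted, where its adjusted p ran from 0.0627 to 0.318. In Luxi 1, 27.4% of the PLIN3 signal lay in introns, and in the other animals none.

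PLIN5, the coat of droplets in oxidative fibres that ties them to mitochondria, lies on the plus strand of chromosome 7 from 19600495 to 19611773. Its FPKM was 4.54, 10.9 and 6.34 in Shandong black cattle and 5.02, 4.84 and 6.45 in Luxi cattle. Shandong black 1 was the lowest of all 6 animals and Shandong black 2 the highest, and the Luxi animals lay in between. The mean was 7.25 ± 3.26 (SD, n = 3) against 5.44 ± 0.882 (SD, n = 3). The log2 difference of -0.29 was not called (limma adjusted p = 0.588), with a 95% interval of -0.98 to 0.39. The sign rested on Shandong black 2, since without it the difference was 0.01. MYH7, the slow myosin heavy chain, also had its highest value in Shandong black 2, at 2097 FPKM. It was at 235.1 and 280.1 in the other Shandong black animals and at 120.1 to 479.4 in Luxi cattle. Other slow or oxidative fibre markers were divided. Among the Shandong black animals TNNI1, MYL3 and ATP2A2 were highest in Shandong black 2, whereas MYL2, TNNT1, MB, CA3 and MYH2 were lowest there. Of the fast-fibre markers, MYLPF, TNNI2, TNNT3, ATP2A1 and ACTN3 were highest there among these animals, and TNNC2 and MYL1 lowest.

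The only reference transcript of PLIN5 has 8 exons and carried from 28.1 to 69.6% of the PLIN5 FPKM of an animal. A 9-exon form with 97.3% of its bases on PLIN5 exons was assembled in each animal except Shandong black 2. A form that starts 243 to 264 bases further into the gene was assembled in Shandong black 2 and Luxi 2, and a 7-exon form in Shandong black 1, Shandong black 2 and Luxi 2. None of these forms kept to a breed. On the reference transcript alone PLIN5 stood at 1.51, 5.59 and 4.31 in Shandong black cattle and at 3.49, 1.36 and 2.60 in Luxi cattle, and the breeds overlapped there too.

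The fat-cell coat PLIN1 and the fibre coat PLIN5 were set against each other within each animal, which removes the scaling of the library apart from the pseudocount. The log2 ratio of PLIN1 to PLIN5 was 1.38, 0.64 and 0.92 in Shandong black cattle and -2.11, -1.44 and -1.81 in Luxi cattle. PLIN1 exceeded PLIN5 in each Shandong black animal and fell below it in each Luxi animal. The breeds differed by -2.77 (exact two-sided permutation test, p = 0.1, the smallest that 3 against 3 animals can give). The log2 ratio of PLIN2 to PLIN5, which was not tested, was 2.28, 1.00 and 1.94 in Shandong black cattle and 0.04, 0.13 and -0.63 in Luxi cattle.

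As shares of the summed perilipin FPKM, PLIN1 took 18.4 to 23.8% in Shandong black cattle and 1.79 to 4.48% in Luxi cattle. PLIN2 took 30.8 to 40.2% and 11.4 to 23.7%. PLIN4 took 23.8 to 26.9% and 45.5 to 54.5%, and PLIN5 7.03 to 14.8% and 18.8 to 23.0%. The shares of these 4 genes did not overlap between the breeds, while those of PLIN3, at 6.79 to 7.995% and 6.08 to 11.3%, did. Shares add up to a fixed total, so a larger share of PLIN4 or PLIN5 in Luxi cattle is no rise of these genes. The summed perilipin FPKM itself was 64.6, 73.6 and 70.3 in Shandong black cattle and 21.8, 25.8 and 33.4 in Luxi cattle. The PLIN4 shares include its repeat exon 5, at 10.5 to 15.3 per gigabase in Luxi cattle, against 6.31 to 10.9 on its last exon. On the last exons PLIN4 and PLIN5 were at 6.31 and 6.62 in Luxi 1. They were at 6.65 and 5.34 in Luxi 2 and at 10.9 and 7.55 in Luxi 3.

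**Figure D4:**
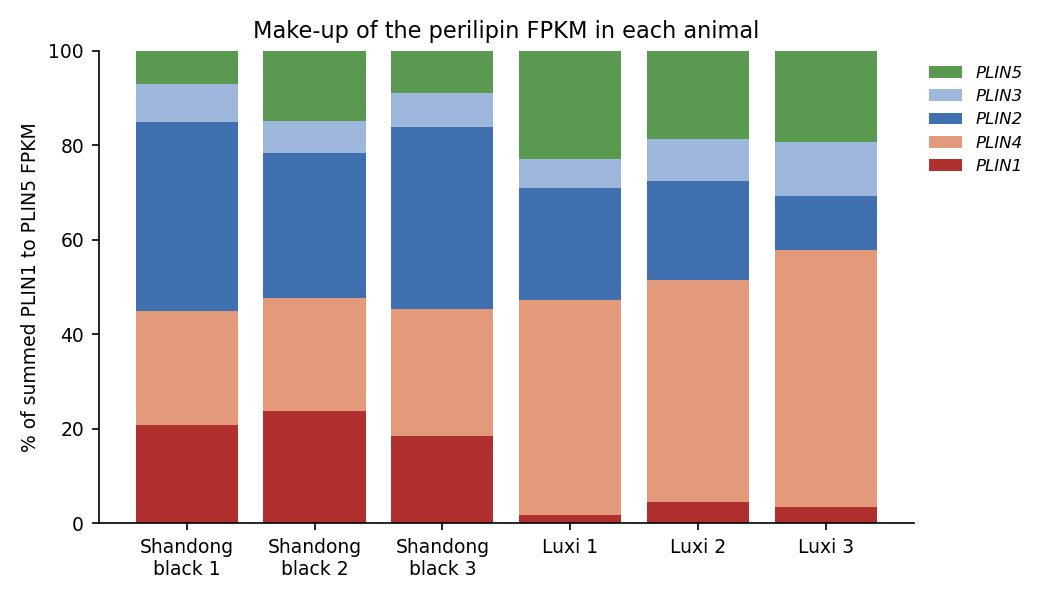
Stacked bars of the percentage of the summed PLIN1 to PLIN5 FPKM that each perilipin held in each of the 6 animals. PLIN2 and PLIN1 make up over 50% in the Shandong black animals. PLIN4, with its repeat exon included, is the largest part in every Luxi animal, at 45.5 to 54.5%.

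FITM1, the muscle form of the endoplasmic reticulum protein that gathers triglyceride, lies on the minus strand of chromosome 10 from 21017364 to 21019749. Its FPKM was 5.19, 7.87 and 9.92 in Shandong black cattle and 5.82, 18.5 and 20.4 in Luxi cattle. Luxi 2 and Luxi 3 lay above all Shandong black animals, and Luxi 1 lay with the lower ones. The log2 difference of 0.75 was not called (limma adjusted p = 0.376) and had a 95% interval of -0.32 to 1.82. Without Luxi 1 it was 1.28, and FITM1 was called higher in Luxi cattle (limma adjusted p = 0.0416). From 1.40 to 14.1% of the signal across FITM1 lay on the opposite strand.

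FITM2, the widely expressed form, lies on the minus strand of chromosome 13 from 72746422 to 72752451. Its FPKM was 3.69, 4.83 and 4.90 in Shandong black cattle and 2.67, 6.21 and 5.49 in Luxi cattle. Luxi 1 was the lowest of all and the other Luxi animals were the highest. The log2 difference was 0.03 (limma adjusted p = 0.961) with a 95% interval of -0.62 to 0.68, and its sign turned with the scaling, to -0.10 with size factors and -0.15 with quantile normalization.

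The order of levels changed between the breeds. In Shandong black cattle PLIN2 was the highest member, above PLIN4 without overlap. PLIN4, PLIN1 and CIDEC followed, and neighbours among these 3 overlapped. FITM1, PLIN5 and PLIN3 came next, again with overlap between neighbours, then FITM2 and, well below, CIDEA. In Luxi cattle FITM1 and PLIN4 were the highest and overlapped, PLIN5 came after PLIN4 without overlap, and PLIN2, FITM2, PLIN3, CIDEC and PLIN1 followed, each overlapping the next. CIDEA was the lowest, just under the lowest PLIN1 value. These places are by FPKM over all exons, with the repeat exon of PLIN4 and the thinly covered last exon of CIDEA included.

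Fat-cell markers were set beside the fat-cell coats. Of 12 marker names 11 were found and 9 could be tested. ADIPOQ, which encodes the fat-cell hormone adiponectin, FABP4, the fatty acid carrier of fat cells, and TRARG1, a partner of the insulin-driven glucose transporter, were called lower in Luxi cattle, by 11.6-fold, 16.2-fold and 16.9-fold. None of the 3 was called without Shandong black 1 or without Shandong black 3, and TRARG1 alone was called without Luxi 2. ADIPOQ was called in 7 of 17 alternatives and the other two in 13 each. TRARG1 passed the limit of 1 FPKM only through Shandong black cattle. All 3 were lowest in Luxi 1, as were PLIN1 and CIDEC: ADIPOQ was at 0.576 FPKM there against 5.76 and 6.76 in the other Luxi animals, and TRARG1 and LEP were listed at 0. ACVR1C was listed at 0 in all 3 Luxi animals and was at 0.402 FPKM or less in Shandong black cattle. The leptin gene LEP was at 0.623 to 1.56 FPKM in Shandong black cattle and at 0 to 0.0881 in Luxi cattle. It passed the limit of 1 FPKM only through Shandong black cattle and was not called (limma adjusted p = 0.0567). LPL and GPD1, which muscle fibres also express, were on the contrary higher in each Luxi animal than in each Shandong black animal, and neither was called. The median log2 difference of the 9 tested markers was -1.04. The summed FPKM of the 11 found, which rests mostly on AQP7, GPD1, ADIPOQ and FABP4 in Shandong black cattle and on GPD1, AQP7 and LPL in Luxi cattle, was 234 to 349 in Shandong black cattle and 155 to 297 in Luxi cattle. What part the number of fat cells in a sample had in the PLIN1, CIDEC, CIDEA and PLIN2 values was not tested.

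**Figure D5:**
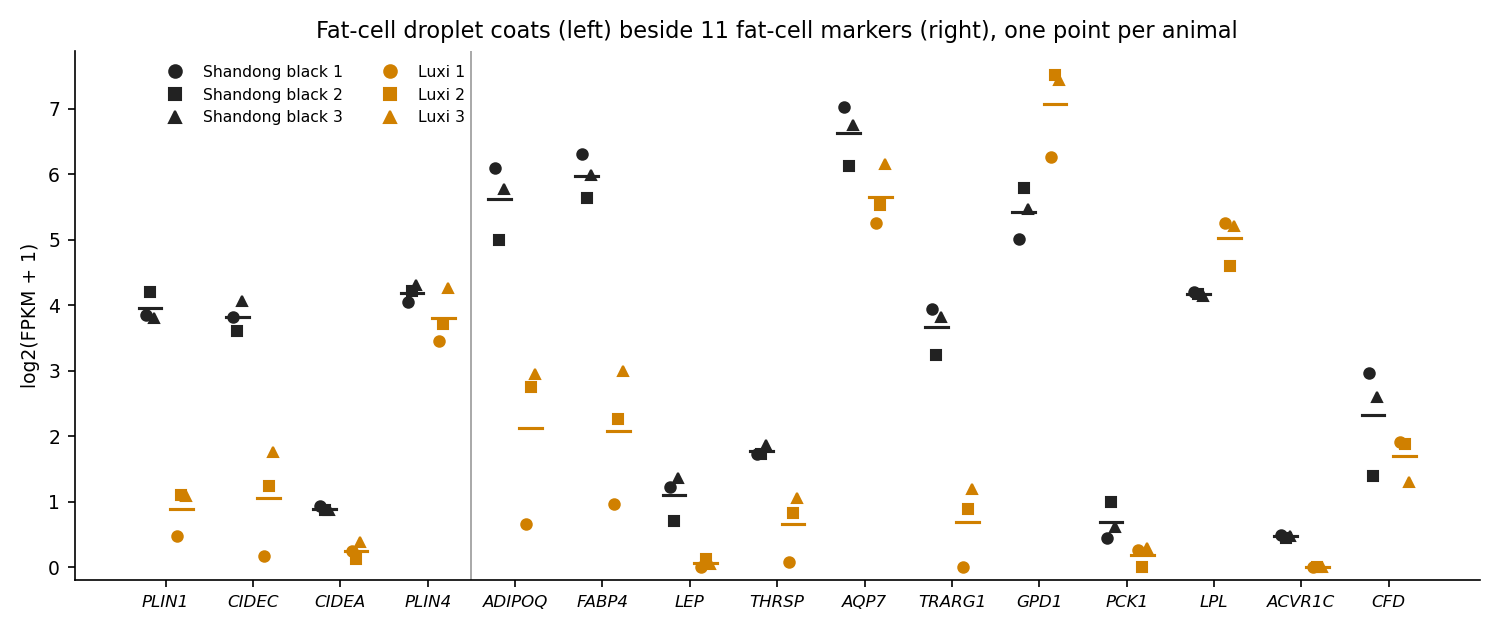
Log2(FPKM + 1) of PLIN1, CIDEC, CIDEA and PLIN4 on the left and of 11 fat-cell markers on the right, with 1 point per animal and a short line at the mean of each breed. PLIN1 and CIDEC drop in Luxi cattle as ADIPOQ, FABP4 and TRARG1 do, PLIN4 overlaps between the breeds as AQP7 and CFD do, and LPL and GPD1 are higher in Luxi cattle.

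Of 10 markers of slow or oxidative fibres, TNNI1 was called lower in Luxi cattle and none was called higher. That call was lost without a filter, with voom, on reference transcripts alone, under the replicate block, at a pseudocount of 0.1, and without any 1 of the Shandong black animals or Luxi 2 (limma adjusted p = 0.0504 to 0.202). The list had a median log2 difference of -1.06 and a summed FPKM of 32466 to 41422 in Shandong black cattle and 10780 to 23882 in Luxi cattle. None of the 8 tested markers of fast fibres was called, with a median of 2.11 and a summed FPKM of 3130 to 5345 and 4393 to 29408. Without Luxi 1, 5 fast-fibre markers were called, and under the replicate block 1 was. MYL3 went against its list, at 13.1 to 46.4 FPKM in Shandong black cattle and 63.5 to 1179.8 in Luxi cattle, as did MYH2, the fast oxidative myosin, at 8.19 to 209 and 188 to 1284, where the breeds overlapped. Neither was called (limma adjusted p = 0.119 and 0.137). Fat progenitor and stromal markers had a median of 0.38, with no call among 5 tested, a sum of 84.7 to 114 in Shandong black cattle and of 109 to 196 in Luxi cattle. Endothelial markers had a median of 0.77 (4 tested, sums of 15.7 to 16.5 and 20.0 to 59.0), macrophage markers one of -0.31 (4 tested, sums of 8.17 to 13.3 and 5.97 to 11.8) and blood markers 1 tested gene at -0.14 (sums of 1.12 to 1.98 and 1.38 to 1.99), none with a call. Without Luxi 2, 1 endothelial marker was called. The part of fibre make-up in the PLIN5 and FITM1 values was not tested.

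Genes of proteins that act on the droplet beside the perilipins were counted by list, beside the 2.57% of all genes tested that were called. Among 7 lipases and their cofactors, LIPE, the hormone-sensitive lipase that PLIN1 admits to the droplet, was called lower in Luxi cattle, with a mean FPKM of 6.90 ± 0.304 (SD, n = 3) against 1.97 ± 0.930 (SD, n = 3) and no overlap (limma adjusted p = 0.0329). The LIPE call was lost under the replicate block, without a filter, and without any 1 of the Shandong black animals or Luxi 3 (limma adjusted p = 0.0523 to 0.152). PNPLA2, the first lipase of the droplet, overlapped between the breeds (log2 difference -0.49, limma adjusted p = 0.388), as did its activator ABHD5 (-0.21, 0.741). G0S2 and HILPDA, both inhibitors of PNPLA2, were lower in each Luxi animal, with log2 differences of -1.16 and -1.20. Neither was called (limma adjusted p = 0.0832 and 0.142). Both passed the limit of 1 FPKM only through Shandong black cattle, their Luxi means being 0.351 and 0.0372. The median of the 7 was -0.49. None of 9 genes of triglyceride synthesis was called, and their median was -0.03. With size factors, without Shandong black 2 and without Luxi 1, 1 synthesis gene was called in each setting. DGAT2, which makes triglyceride at the droplet, was lower in each Luxi animal (-1.002, limma adjusted p = 0.103), as was the acyltransferase GPAT3 (-2.19, limma adjusted p = 0.0615). LPIN1, a phosphatidate phosphatase, was higher in each Luxi animal (0.79, limma adjusted p = 0.140).

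Of 12 tested genes for droplet formation and other droplet proteins, TMEM159, a partner of seipin where droplets are born, was called lower in Luxi cattle, with 86.1, 51.7 and 74.2 FPKM in Shandong black cattle and 5.19, 8.02 and 17.7 in Luxi cattle (limma adjusted p = 0.0269). The TMEM159 call was lost in 4 of 17 alternatives, namely no filter and leaving out Shandong black 1, Shandong black 3 or Luxi 2. The median of that list was 0.17, and BSCL2, which encodes seipin, overlapped (log2 difference -0.18, limma adjusted p = 0.661). None of 10 transcription factors that act on droplet genes was called, with a median of 0.17. Without Luxi 1, 3 of these factors were called, and on reference transcripts alone 1 was. CEBPA, a factor of fat-cell differentiation, passed on p but not on size (-0.89, limma adjusted p = 0.0438). It passed the limit of 1 FPKM for testing only through Shandong black cattle, with a Luxi mean of 0.335. PPARG was lower in each Luxi animal and not called (-0.92, limma adjusted p = 0.0791). PPARGC1A, a coactivator of fibre oxidation, was at 2.07 FPKM or less in Shandong black cattle and at 44.5, 5.18 and 7.14 in Luxi cattle, and was not called (2.19, 0.129). Of 12 genes for fat oxidation in fibres LIPE alone, counted in the lipases as well, was called, and the median was -0.46.

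The genes whose pattern over the 6 animals was nearest to a member were sought by the root mean square difference of log2(FPKM + 1), each gene centred on its mean. Nearest to PLIN1 were TRARG1 at 0.385, ACSM1 at 0.390, CIDEC at 0.409, PNP at 0.416 and an entry of the microRNA gene MIR133B at 0.452. Like PLIN1, all of these but CIDEC passed the limit of 1 FPKM only through Shandong black cattle. Their Luxi means were 0.708 for TRARG1, 0.229 for ACSM1, 0.601 for PNP and 0.596 for MIR133B. In ACSM1 Luxi 1 and Luxi 2 were listed at 0 and the Shandong black animals at 5.67 to 8.44 FPKM. PNP was at 5.18 to 9.74 and 0.157 to 1.07. Nearest to PLIN5 were PNRC1 at 0.0961, HOXA4 at 0.126, ZNF48 at 0.136, SLC26A7 at 0.139 and POLR1A at 0.143. All 5 had their highest value in Shandong black 2, as PLIN5 had. These distances are descriptions over 6 animals and were not tested.

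The members were not equally complete in the annotation. All FPKM of CIDEC, FITM1 and FITM2 lay on reference transcripts, and assembled transcripts held at most 9.02% of PLIN2, 14.4% of PLIN3 and 23.7% of CIDEA in any animal. They held 13.5 to 74.1% of PLIN4 and 30.4 to 71.9% of PLIN5. Luxi 1 stood apart from the other libraries in its assembled transcripts: those of a single exon held 10.6% of its bases, against 5.62 to 8.39% in the others, and assembled transcripts that entered no gene held 29.8% of its FPKM, against 21.6 to 28.2%. Without Luxi 1, PLIN1 (log2 difference -2.85), CIDEC (-2.33) and PLIN2 (-2.24) were called together with FITM1.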

How the data were processed

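Total RNA of the longissimus dorsi muscle was sequenced from 6 animals, 1 library each, and each animal is a separate replicate of its breed. Per the labels and the paper, the authors made the libraries with an Illumina TruSeq kit, cleaned the reads (Fastp), placed them on ARS-UCD1.2 (HISAT) and assembled every library by itself (StringTie 1.3.3b in the file headers) along the NCBI gene models, with the read strand set. The deposited column holds, as text attributes of each transcript and exon, the coverage (mean reads per base, not normalized), the FPKM (coverage relative to all aligned bases) and the TPM (coverage scaled by a factor for each library). Counts of whole reads were not used here, so the counting error of the values was not estimated. A transcript absent from a file was taken as 0.

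Gene FPKM was the sum of the reference transcripts plus any unnamed assembled transcript that lay to 50% or more on its exons, same strand (bedtools 2.31.1, Python 3.11.15, pandas 2.3.3). Exon values sum the coverage of all same-strand transcripts, divided by the aligned gigabases. limma 3.58.1 (R 4.3.3; lmFit, eBayes with trend, no covariate) was run on log2(FPKM + 1) with Benjamini-Hochberg adjustment over 9781 genes, and was tested on simulated data. The paper used Cuffdiff, which needs alignments. The ratio of PLIN1 to PLIN5 was compared with an exact permutation test (scipy 1.17.1). The text names the 9 members, genes of 13 lists (8 of cell-type and sex markers, 5 of droplet pathways) and the 5 nearest genes in pattern to PLIN1 and to PLIN5. Members and lists were chosen with earlier results of these data known.

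Alternatives were a pseudocount of 0.1, no filter, a mean of at least 5 FPKM, TPM, size factors, quantile normalization, no trend, limma voom on reads estimated from coverage, a replicate block, reference transcripts only, a 10% rule for assembled transcripts, and leaving out each animal. Gene names were those of the files, and all 9 members stand also in the ARS-UCD2.0 gene table, which served for names alone. Sequences were not used here.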

Additional observations from a re-analysis of the deposited data

How the results depend on the processing

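PLIN1 was called in all 17 alternatives, with log2 differences from -4.58 to -2.85, and the direction of PLIN2, PLIN3, PLIN4 and CIDEC held in each. CIDEC missed the threshold under 3 settings, namely voom (-4.03), a pseudocount of 0.1 (-3.84) and no filter (-2.78, with more genes tested). Leaving out each animal in turn gave -3.13 to -2.33 for CIDEC, -2.26 to -2.06 for PLIN2, -0.54 to 0.0050 for PLIN5 (above 0 without Shandong black replicate 2), 0.45 to 1.28 for FITM1 and -0.16 to 0.33 for FITM2. It gave 1 to 4 members called, PLIN1 alone without Shandong black replicate 1 or 3, and 3 to 597 of all genes called. FITM2 turned below 0 with TPM (-0.0905), size factors (-0.10), quantile normalization (-0.15) and voom (-0.0101). The difference between the breeds in the PLIN1 to PLIN5 ratio was -3.67 with a pseudocount of 0.1. Of all genes, 63 were called without a filter, 134 at a mean of at least 5 FPKM, 91 with voom and 160 on reference transcripts, against 251, and the causes were not tested. The replicate block gave 135 genes and the same 3 members, but same-numbered animals are different animals and their deviations correlated at 0.0745 to 0.0869, so the numbers do not pair them. The number of animals limits all values, and those of PLIN1, CIDEC and CIDEA in Luxi cattle also rest on few reads.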
